A study of Mus musculus with 2 samples.

Results

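Integrins and laminins are the receptors and the ligands by which a cell holds on to its basement membrane, and their genes were followed through the accessible chromatin of mouse adipocytes. Members were the protein-coding genes of GENCODE release M21 whose symbol is Itga or Itgb with a number or letter, or Lama, Lamb or Lamc with a number, without the binding proteins Itgb1bp1 and Itgb3bp. They were 39 of 21829 protein-coding genes, 28 of the integrin and 11 of the laminin family. DNase-seq, in which the endonuclease DNase I cuts DNA where chromatin is open, had been done on 2 libraries of 1 group of cells. These were adipocytes at day 8 of differentiation in culture from 3T3-L1, a mouse fibroblast-like line that accumulates lipid after hormonal induction. No undifferentiated or otherwise treated cells were analysed here, so every comparison below is among genes within the same cells. The labels number the libraries as biological replicates 1 and 2, give both the same donor record and name the strain C57BL/6J, although 3T3-L1 is generally described as a line of Swiss mouse origin. Nothing in them says whether the cultures were differentiated separately, and the spread between the libraries may therefore be technical.

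An integrin is a heterodimer of an alpha and a beta subunit that spans the plasma membrane, binds matrix outside the cell and is coupled to actin inside it by talin, kindlin and other adaptors. A laminin is a trimer of an alpha, a beta and a gamma chain, named by the numbers of its chains, that assembles into the sheet of the basement membrane. Each mature fat cell is wrapped in such a membrane, and differentiating 3T3-L1 cells are known to move from the fibronectin receptor chain alpha5 towards the laminin receptor chain alpha6. Open chromatin is a property of regulatory DNA and not a transcript level, and no RNA was analysed here.

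The deposited lists held 133695 peaks in replicate 1 and 216556 in replicate 2 on the assembled chromosomes. The sequencing depth behind them is unknown. Replicate 2 had the larger number of peaks in total, though not at every gene. The part of this larger number in the differences between libraries below was not tested. The labelled cell type was checked on promoters: all 8 adipocyte markers (among them Adipoq, Fabp4, Plin1 and Pparg) had a promoter peak in both libraries, as had 5 of 6 fibroblast genes, of which Dlk1 had none. None of the 5 endothelial and none of the 5 epithelial markers did, and of 7 leukocyte markers Spi1 alone did, while 2 of 3 platelet genes (Gp9 and Pf4) and 1 of 3 muscle genes (Acta1) had one. In replicate 2 alone, 2 more endothelial markers (Tek and Tie1) and 2 more leukocyte markers (Cd68 and Adgre1) had a promoter peak.

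Promoters open in both libraries included those of widely used receptor chains for fibronectin, laminin and vitronectin (Itgb1, Itga5, Itga6, Itgav and Itgb5). Those of the chains of laminin-411 and laminin-421 (Lama4, Lamb1, Lamb2 and Lamc1) were open as well. Itga1, Itga7, Itga10, Itgb6, Itgbl1 and Lamb3 also had a promoter open in both libraries. Of the 7 leukocyte integrin genes, Itgal alone had one. A promoter was counted as accessible in a library when a peak reached into the 1000 bp to either side of any start site of the gene's protein-coding transcripts. In both libraries this held for 16 of the 39 genes (41.0%), beside 55.3% of all protein-coding genes. The integrin genes gave 11 of 28 (39.3%) and the laminin genes 5 of 11 (45.5%), each below the share of all genes. Taken by itself, replicate 1 counted 16 genes and replicate 2 counted 25, a mean of 20.5 ± 6.36 (SD, n = 2), while of all genes 55.6% and 59.5% were counted. The share of the family was thus below that of all genes in replicate 1 and above it in replicate 2 (64.1%). In 9 of 39 genes (23.1%) the promoter peak was found in replicate 2 and not in replicate 1, beside 4.22% of all genes. The reverse was found in none of the 39, and it was rare over all genes as well (59 of 21829). The remaining 14 genes (35.9%) had none in either library, beside 40.2% of all genes. Since the cells were sequenced in bulk, fewer cells with an open site and a less open site in each cell cannot be told apart.

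Among the alpha subunits that bind collagen, Itga1 and Itga10 had an accessible promoter in both libraries. The promoter of Itga2 was called in replicate 2 alone, and that of Itga11, the collagen receptor chain of fibroblasts, in neither. Of the 3 alpha subunits that bind laminin, Itga6 and Itga7 were accessible in both libraries and Itga3, best known from epithelia, in replicate 2 alone. The alpha subunits that read the RGD tripeptide of fibronectin and vitronectin split evenly. Itga5 and Itgav were accessible in both libraries, whereas Itga8, the nephronectin receptor chain, and Itga2b, the platelet fibrinogen receptor chain, were called in replicate 2 alone. Neither Itga4 nor Itga9, whose products bind VCAM1 and tenascin among other ligands, had a promoter peak in either library. Of the 5 leukocyte alpha genes, Itgad, Itgae, Itgam and Itgax had none, and Itgal, the alpha chain of LFA-1, had its peak at an internal start site described below.

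Of the beta subunits, Itgb1, the common partner of most alpha chains, and Itgb5 and Itgb6, which pair with the Itgav product, were accessible in both libraries. Itgb3 and Itgb8, further partners of Itgav, were called in replicate 2 alone, and Itgb4, the hemidesmosome subunit of epithelia, in neither. The leukocyte subunits Itgb2 and Itgb7 had no promoter peak in either library. Of the integrin-like genes, which encode no subunit of the known heterodimers, Itgbl1 had a shared promoter peak and Itgb2l had none. All 3 laminin beta genes (Lamb1, Lamb2 and Lamb3) were accessible in both libraries, as was 1 of 5 alpha genes, Lama4, and 1 of 3 gamma genes, Lamc1. Lama2 and Lama3, the alpha chains of muscle and of epithelial laminins, were called in replicate 2 alone. Lama1, an alpha chain of early embryos, Lama5, an alpha chain of many mature basement membranes, and the gamma chain gene Lamc3 were called in neither.

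Because an integrin needs both of its subunits and a laminin all 3 chains, the promoters were also read by complex. Of 24 known integrin heterodimers, 8 had every subunit promoter accessible in both libraries. These were Itgb1 with Itga1, Itga5, Itga6, Itga7, Itga10 and Itgav, and Itgav with Itgb5 and Itgb6. Replicate 1 alone gave the same number of 8 and replicate 2 gave 14, a mean of 11 ± 4.24 (SD, n = 2). The 6 added in replicate 2 were Itgb1 with Itga2, Itga3 and Itga8, Itgb3 with Itga2b and Itgav, and Itgb8 with Itgav. None of the 4 heterodimers that contain Itgb2 was complete in either library, since Itgb2 had no promoter peak, although Itgal had one. Of 14 laminin trimers, laminin-411 and laminin-421 had all chain promoters accessible in both libraries, which are the combinations of Lama4 with Lamb1 or Lamb2 and Lamc1. Replicate 1 gave 2 trimers and replicate 2 gave 7, a mean of 4.5 ± 3.54 (SD, n = 2), the added ones all holding Lama2 or Lama3. Such a count says which chains had open promoters and not which complexes were made.

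Each deposited peak carries a whole-number signal from 1 to 150, which was read as a rank within its library. The strongest promoter peaks of the families in replicate 1 belonged to Itgav and Lamc1. Itgav encodes the alpha chain shared by the vitronectin and TGF-beta activating integrins, and its peak at chr2:83724276-83724445 (GRCm38), centred at −36 bp from the first start site (negative distances are upstream), had a value of 99 in replicate 1 and 139 in replicate 2. That put it at percentiles 92.3 and 96.7 of all peaks of the libraries. It was 1 of 4 shared peaks around the Itgav start sites, all inside a single hotspot, the authors' broader region of raised cutting, of 2008 bp in replicate 1 and 2292 bp in replicate 2. Lamc1, the gamma chain of most laminins, was level with it or just above, with values of 99 and 140 at −235 bp from its start site (percentiles 92.3 and 97.1). The next in replicate 1 were Itga1 with 92 and 125 at chr13:115101776-115101945, Itga5 with 91 and 134 at chr15:103366516-103366665, and Itgb1 with 89 and 130 at chr8:128685616-128685765. All 3 were centred within 172 bp of a start site, and that of Itga1 also lay in the promoter window of Gm49395. Peak values were higher in replicate 2 for each of these genes, as was the median value of all peaks (45 in replicate 1 and 69 in replicate 2).

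The strongest promoter peaks of an integrin alpha, an integrin beta and a laminin alpha gene are printed to show what kind of DNA was open. Each is the stretch of the shared peak that lies upstream of the first annotated start site, read on the + strand of GRCm38, with matches to the searched motifs in capitals:
Itgav, chr2:83724276-83724396: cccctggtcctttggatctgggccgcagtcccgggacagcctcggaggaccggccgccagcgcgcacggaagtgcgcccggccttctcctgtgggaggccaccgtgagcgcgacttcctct
Itgb1, chr8:128685616-128685653: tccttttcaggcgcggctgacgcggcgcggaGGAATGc
Lama4, chr10:38965456-38965514: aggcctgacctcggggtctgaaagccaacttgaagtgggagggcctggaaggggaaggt
The capitals in Itgb1 are 1 TEAD motif (GGAATG), which 6.78% of all promoter peaks held in their central 150 bp. The stretches of Itgav and Lama4 held none of the 12 motifs. For shares and medians over promoter peaks, 30 shared peaks were counted for the families. These were centred within 1000 bp of a start site and had a member's site as the nearest. The Itga1 peak shared with Gm49395 was not among them. A GC box (GGGCGG on either strand, the letters bound by Sp1 and related factors) was present in the central 150 bp of 11 of these 30 (36.7%), beside 36.0% of all 21972 promoter peaks.

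**Figure D1:**
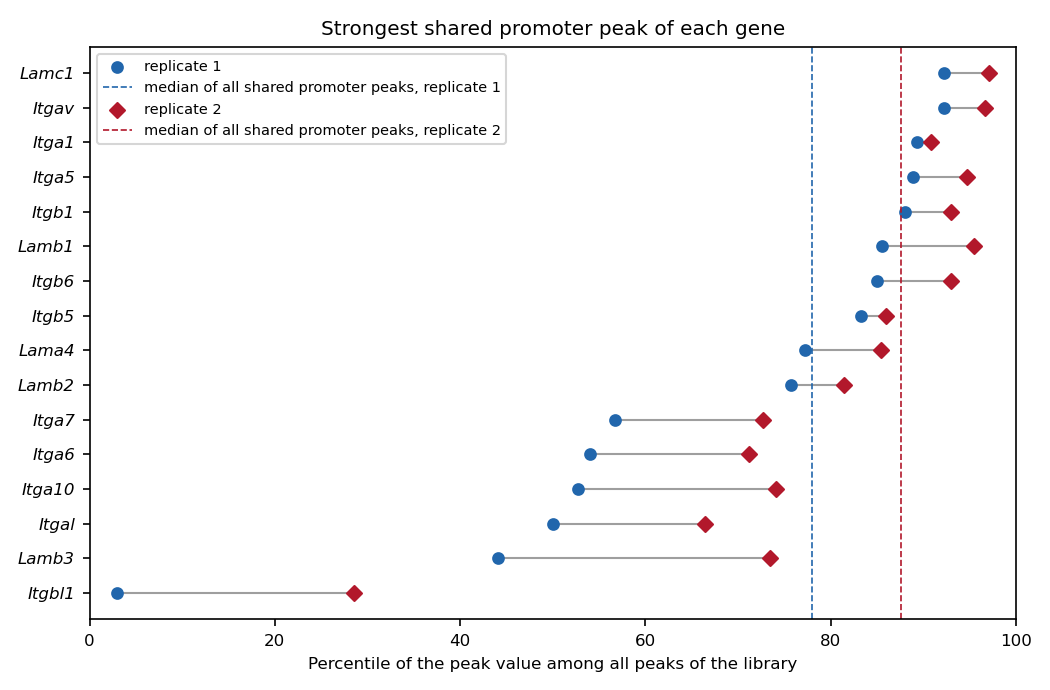
Percentile of the value of the strongest shared promoter peak of each of the 16 genes among all peaks of replicate 1 (circles) and of replicate 2 (diamonds), joined by a line, with dashed lines at the medians of all shared promoter peaks (78.0 and 87.5). Lamc1, Itgav, Itga1, Itga5, Itgb1, Lamb1 and Itgb6 sit above the median in both libraries, and Itgbl1 is lowest at 2.98 and 28.5.

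The other accessible promoters had lower values in replicate 1. In replicate 2, Lamb1 was above Itga1, Itga5 and Itgb1, and Itgb6 above Itga1. Lamb1 had values of 84 and 136, Itgb6 83 and 130, Itgb5 80 and 115, Lama4 71 and 114 and Lamb2 69 and 107 in replicates 1 and 2. The laminin receptor chains Itga6 (48 and 92) and Itga7 (50 and 94) lay with Itga10 (47 and 96), Itgal (45 and 86) and Lamb3 (41 and 95) between percentiles 44.1 and 56.7 in replicate 1. In Itga6 the shared peaks around the start site were in separate hotspots of 171 to 413 bp in replicate 1 and in a single hotspot of 1895 bp in replicate 2. Itgbl1 had the weakest shared promoter peak, with values of 17 and 53. Over the 30 shared promoter peaks with a member's start site nearest, the median percentile was 69.7 in replicate 1 and 81.7 in replicate 2. For all promoter peaks it was 78.0 and 87.5.

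The 9 promoters called in replicate 2 alone were of low to middling rank in that library. Itgb3, the beta chain of the platelet and osteoclast vitronectin receptors, had the highest value, 81, at chr11:104608036-104608185 (percentile 62.3), with a further peak of 68 beside it. Lama2 had a value of 61 at chr10:27057476-27057625 (percentile 40.1), below the median rank of that library's peaks. Itga2b and Lama3 each had 56, Itgb8 54 with a further peak of 51, Itga3 and Itga8 each 52, and Itga2 39 at chr13:114901556-114901705 (percentile 9.43). The peak of Lama3 was centred 1072 bp from its start site and reached into the window only with its edge. Those of Lama2 and Itga2 were at internal start sites, 560198 and 30157 bp from the first.

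Several genes were open at a start site other than their first. Counting the first site alone, 13 of 39 genes (33.3%) were accessible in both libraries, beside 51.5% of all genes. In 3 genes (7.69%) the shared promoter peak was at another site alone, beside 3.77% of all genes. Itgal, the LFA-1 chain of leukocytes, had its peak at the last of its 5 sites, 13258 bp into the gene, and no peak in either library at the first 4. Itga7, the laminin receptor chain of muscle, had its shared peak at −992 bp from the last of its 3 sites, 19955 bp from the first, where replicate 2 alone had a peak with a value of 71. Itgbl1 had it at the second site, 1453 bp from the first, where replicate 2 alone had a peak with a value of 41. Itgb1 and Itgb5 were accessible at the first site and at a later one. In Itgb1 the later site lay 38679 bp downstream, with peak values of 59 and 100, and in Itgb5 62276 bp downstream, with 80 and 115, which in replicate 1 was above the 68 of its first site. An internal peak can be a promoter or another kind of element, and these data do not separate them.

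The promoters were also compared by their CpG content, the observed over the expected number of CpG dinucleotides in the 500 bp around the first start site. Over the 39 genes the median ratio was 0.575, beside 0.596 over all genes. Among genes with an accessible promoter it was 0.599 for the families and 0.780 for all genes. Among genes without one it was 0.570 and 0.247. The ratio thus differed little between the accessible and the other genes of the families, while over all genes it was higher at genes with an accessible promoter. It was high at some genes with no promoter peak in either library, such as Itga9 (0.882) and Lamc3 (0.802). At some with a shared one it was low, such as Lamb3 (0.152) and Itgal (0.338). These 4 examples were chosen after their values were seen, and no test was made. The shared peak of Itgal lay at a start site 13258 bp from the first, and that of Lamb3 was centred 669 bp from a start site. Both were outside the DNA measured, so these ratios do not describe the open DNA. At Itga7 and Itgbl1, too, the shared promoter peak was not at the first start site.

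Away from promoters the families were well supplied with accessible sites. A distal peak was a merged interval with a peak of both libraries, centred outside those windows of every protein-coding gene, and it was given to the gene whose start site was nearest, up to 100 kb away. The 39 genes had 278 of these, 155 at integrin and 123 at laminin genes, of 78174 assigned in the genome. The median gene of the families had 6, beside 2 over all genes, with 4 for integrin and 9 for laminin genes. Counted in each library alone the families had 299 distal peaks in replicate 1 and 495 in replicate 2, a mean of 397 ± 139 (SD, n = 2). The medians were 6 and 10 per gene, beside 2 and 3 over all genes. At least 10 shared distal peaks were found at 10 of the 39 genes (25.6%), beside 9.68% of all genes, and none at 4 (10.3%), beside 30.3% of all genes. The genes with none were Itga10, Itgam, Itgb2l and Lamb2, of which Itga10 and Lamb2 had accessible promoters.

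**Figure D2:**
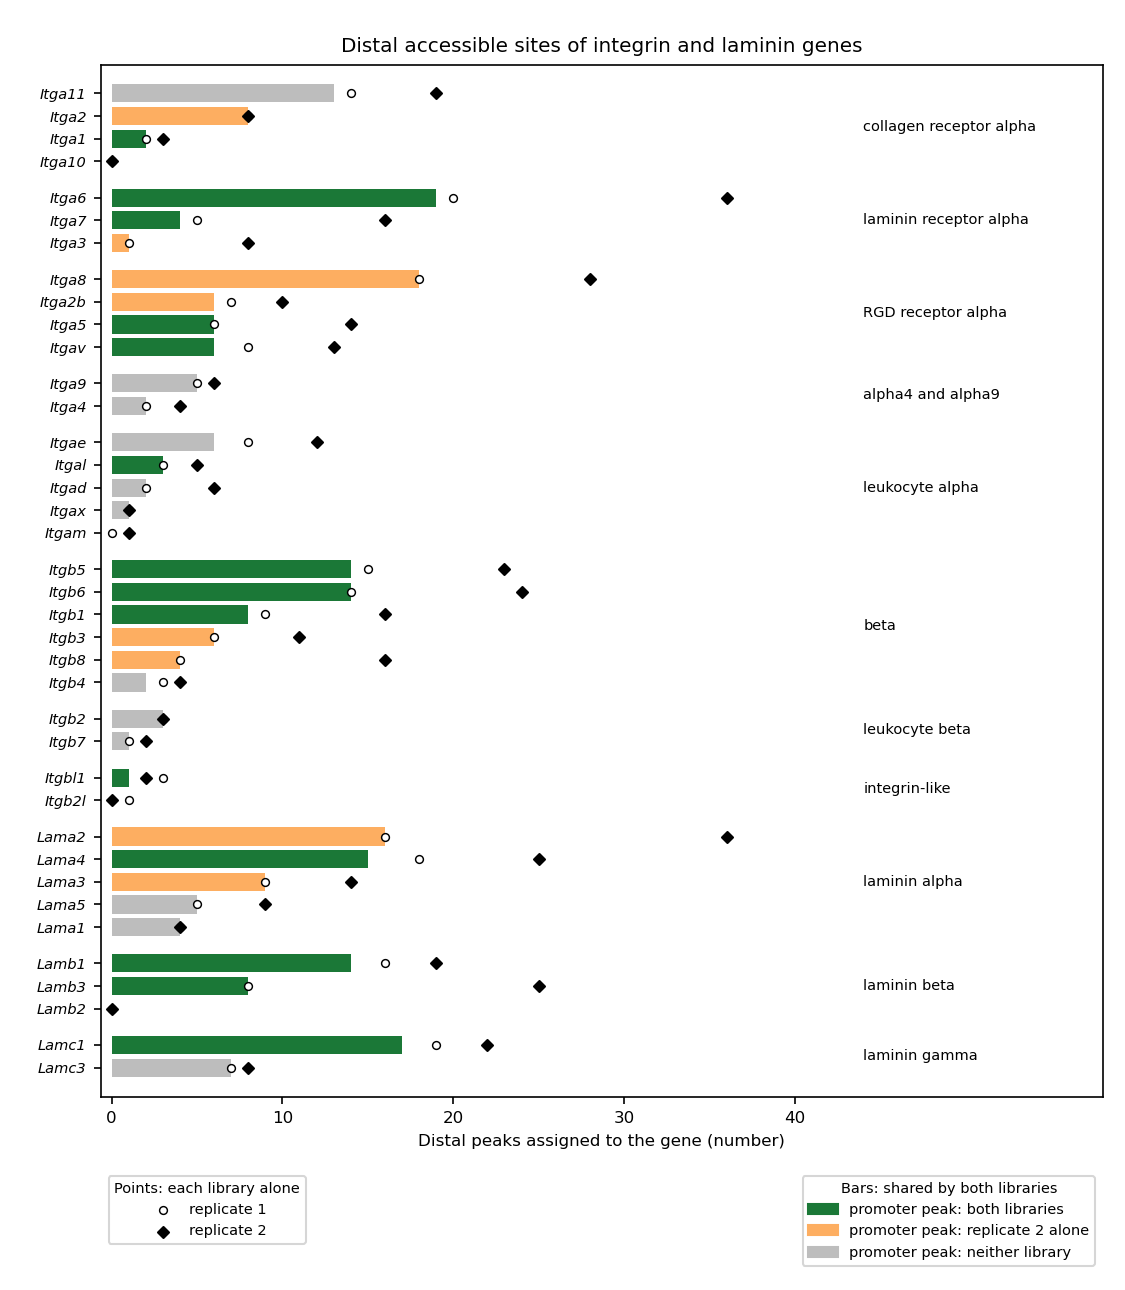
Distal peaks assigned to integrin and laminin genes, grouped by class of subunit or chain: bars give the peaks shared by both libraries, coloured by the state of the promoter, and points the peaks of replicate 1 (circles) and replicate 2 (diamonds) counted alone. Itga6 has a bar of 19 with an accessible promoter, and Itga8 one of 18 with a promoter peak in replicate 2 alone.

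These genes were long. The median length was 64.4 kb, beside 17.4 kb over all genes. The territory of a gene, the length of DNA nearer to it than to any other by the same rule, had a median of 58.6 kb, beside 43.7 kb. Per 100 kb of territory the median gene of the families had 5.63 distal shared peaks, beside 4.11 over all genes. The pooled density was 6.80, beside 5.09. The difference between the families and all genes was therefore smaller per length than by count. The laminin genes had a median density of 10.2 and the integrin genes one of 5.44. Among genes with an accessible promoter the median count was 7 for the families and 3 for all genes, and among the others 5 and 1.

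**Figure D3:**
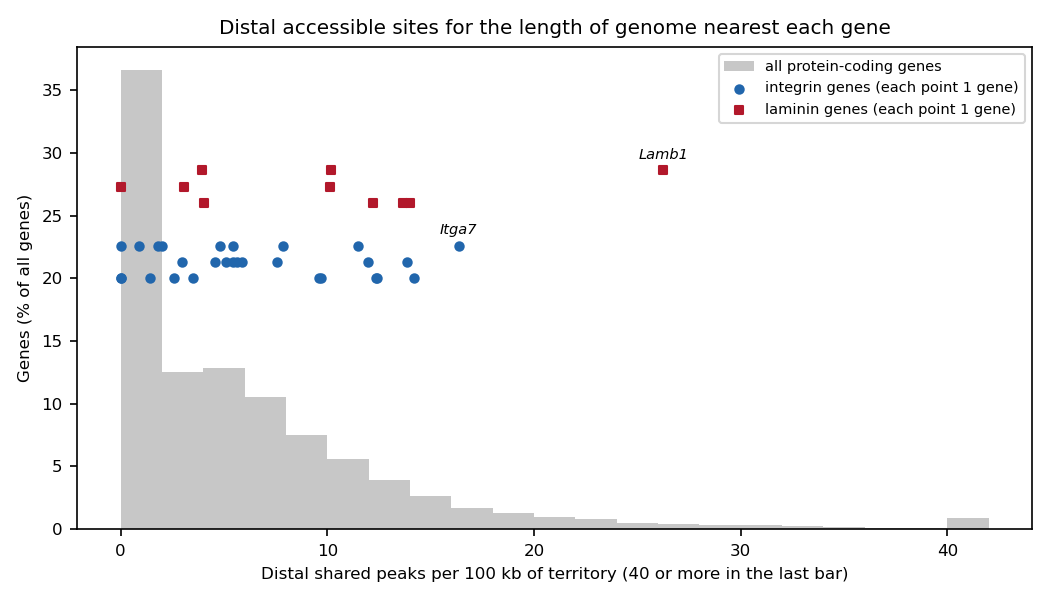
Distal shared peaks per 100 kb of territory for integrin genes (circles) and laminin genes (squares), placed above a histogram of all protein-coding genes in percent; the height of the points has no meaning. Lamb1 lies furthest right at 26.3, and Itga7 is the highest of the integrin genes at 16.4.

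The count and the state of the promoter did not go together in every gene. Itga8 had 18 distal shared peaks and Lama2 16, each with a promoter peak in replicate 2 alone, and Itga11 had 13 with none in either library. Itga6 had 19, Lamc1 17, Lama4 15, and Itgb5, Itgb6 and Lamb1 14 each, all with accessible promoters. Below these, Lama3 had 9, Itga2, Itgb1 and Lamb3 had 8 each, and Lamc3 had 7. A count of 6 was found at Itga2b, Itga5, Itgae, Itgav and Itgb3, 5 at Itga9 and Lama5, and 4 at Itga7, Itgb8 and Lama1. Itgal and Itgb2 had 3, Itga1, Itga4, Itgad and Itgb4 had 2, and Itga3, Itgax, Itgb7 and Itgbl1 had 1. Itgav and Itga1, whose promoter peaks were among the 5 strongest in replicate 1, were thus not among the genes with the most distal sites.

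Shared distal peaks lay within the introns of the gene they were assigned to in 173 of 278 cases (62.2%), beside 43.9% of all assigned peaks. Between genes there were 66 (23.7%), beside 43.5%. For laminin genes the intronic share was 69.9% and for integrin genes 56.1%. The median distance to the nearest start site was 24.3 kb, beside 18.4 kb. A further 31 lay in introns of other genes, which the rule of the nearest start site cannot tell from sites that act on those genes. At Itga2, 5 of 8 were in introns of Itga1, at Itga2b 4 of 6 within Gpatch8, and at Itgb6 3 of 14 in introns of Rbms1.

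**Figure D4:**
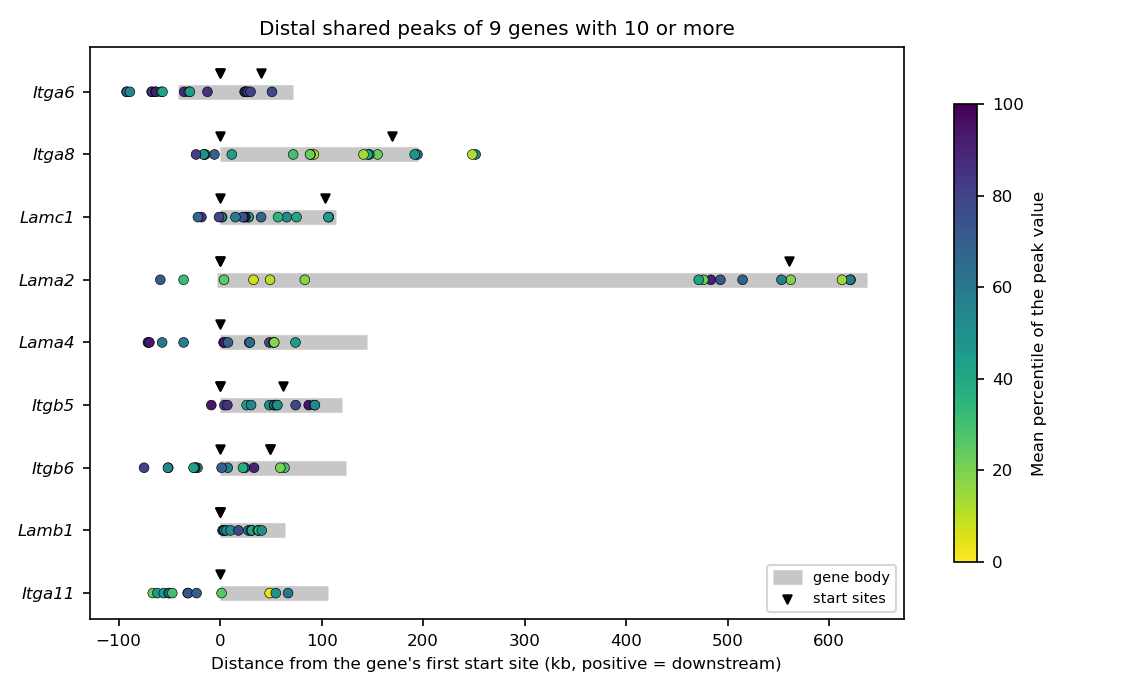
Distal shared peaks (circles) of 9 genes with 10 or more, by distance in kb from the first protein-coding start site, with the gene body as a grey bar, start sites as triangles and the mean percentile of the peak value over both libraries as colour. All sites of Lamb1 fall inside the gene, while those of Itga11 fall mostly upstream.

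The highest rank was shared by intronic peaks of Itga2b, at chr11:102467096-102467265, and of Lamc1. That of Lamc1 lay at chr1:153308516-153308665, 24.2 kb downstream of the start site, and both had values of 124 and 145 (percentiles 98.9 and 98.8). The strongest site of a gene is taken here by the mean percentile over both libraries. Itgb6, a chain best known from epithelia, had its strongest site in an intron of Rbms1 at chr2:60773676-60773825, at −51.1 kb from its start site, with 109 and 130. Itgb5 had one in its own intron at chr16:33916836-33917085 with 104 and 135. At Lamc1, Itgb6 and Itgb5 these values exceeded the strongest promoter peak of the same gene in replicate 1.

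Lama4, the laminin alpha chain with the only promoter of its class that was accessible in both libraries, had its strongest site at −69.7 kb, chr10:38895776-38895925, with 100 and 138, beside 71 and 114 at the promoter. An intronic peak at chr10:38969636-38969805 had 102 and 130, above it in replicate 1. Lama2 had one in its own intron at chr10:27133276-27133425, with 98 and 123, at −76.7 kb from the internal start site that is nearest to it. Its start sites lie at either end of a very long gene, so peaks in the middle of the gene were beyond the limit of 100 kb and could not be counted. At Itga6, the laminin receptor chain, the strongest was at −63.1 kb, chr2:71723736-71723885, with 90 and 134, above the 48 and 92 of its promoter peak. An intronic peak at chr2:71812816-71812965 had 91 and 120, above it in replicate 1. Lamb1 had its own at chr12:31302296-31302465 with 81 and 130, and all of its 14 sites were in its own introns, over 38.7 kb. At Itga8 and Itga11 the strongest sites were intergenic and upstream, at chr2:12325556-12325705 with 69 and 120 and at chr9:62645836-62646005 with 69 and 108. The sites of Itga8, Lama2 and Itga11 had median values in replicate 1 of 36.5, 34.5 and 33, while the other genes named in these paragraphs with 14 or more sites ranged from 40.5 at Lamb1 to 64 at Itga6.

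The strongest distal sites of 5 genes with many distal peaks are printed to let the open sequence be read next to its rank. Each is the central 150 bp of the shared peak on the + strand of GRCm38, with motif matches in capitals:
Itga6, chr2:71723736-71723885: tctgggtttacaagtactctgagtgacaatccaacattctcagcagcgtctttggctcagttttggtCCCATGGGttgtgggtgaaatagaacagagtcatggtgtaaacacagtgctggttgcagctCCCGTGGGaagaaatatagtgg
Itga8, chr2:12325556-12325705: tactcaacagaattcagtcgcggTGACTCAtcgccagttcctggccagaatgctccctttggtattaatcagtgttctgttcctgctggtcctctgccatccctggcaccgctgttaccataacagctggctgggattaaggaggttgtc
Lamc1, chr1:153308516-153308665: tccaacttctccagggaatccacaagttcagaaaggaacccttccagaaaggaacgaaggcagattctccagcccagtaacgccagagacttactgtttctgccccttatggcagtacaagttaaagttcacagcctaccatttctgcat
Lama2, chr10:27133276-27133425: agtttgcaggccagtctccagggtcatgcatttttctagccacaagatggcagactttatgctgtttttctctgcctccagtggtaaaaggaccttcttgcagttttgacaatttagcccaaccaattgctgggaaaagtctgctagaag
Lama4, chr10:38895776-38895925: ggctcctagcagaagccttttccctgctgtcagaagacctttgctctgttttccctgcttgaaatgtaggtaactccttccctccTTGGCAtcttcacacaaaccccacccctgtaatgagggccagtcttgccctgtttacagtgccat
The capitals mark 2 EBF motifs (CCCNNGGG) at Itga6, 1 AP-1 motif (TGANTCA) at Itga8 and 1 NFI motif (TTGGCA) at Lama4. The NFI motif searched here and below is only a part of the full NFI site. The sequences of Lamc1 and Lama2 held none of the 12 motifs. Of all 95618 distal shared peaks 5.49% held the EBF, 10.1% the AP-1 and 21.8% the NFI motif in the same window. Binding was not measured, so a match in a single peak does not show a bound site.

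Over all 278 distal peaks, 12 short motifs of factors known from fat cells, fibroblasts or promoters were counted on either strand of the central 150 bp. The shares are given with exact 95% binomial (Clopper-Pearson) intervals, which cover counting error over peaks only. No test was made. For 9 motifs the interval held the share of all 95618 distal shared peaks. That reference set, unlike the families' peaks, also includes peaks more than 100 kb from every start site. AP-1 was in 11.9% (8.31 to 16.3), beside 10.1% of all distal shared peaks, NFI in 21.6% beside 21.8%, and TEAD (GGAATG) in 11.2% beside 10.2%. C/EBP (TTGCNNAA), the motif of the factors that drive adipogenesis, was in 11.9% beside 13.2%. EBF was in 4.68% beside 5.49%, RUNX (TGTGGTT) in 3.60% beside 4.35% and the GC box in 5.04% beside 3.75%. The glucocorticoid response element (GRE, ACANNNTGT) was in 3.24% (1.49 to 6.06), beside 5.65%.

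For 3 of the 12 motifs the share of all distal shared peaks lay outside the interval of the families. The intervals were not adjusted for the reading of 12 motifs, and they treat peaks of the same gene as independent. DR1 (GGNCANAGG), the form of element bound by PPARG with RXR, was in 8 of 278 peaks, 2.88% (1.25 to 5.59), beside 6.59%. In replicate 2 by itself the DR1 share was 4.85% (24 of 495 peaks). NF-Y (CCAATNA) was in 27 peaks, 9.71% (6.50 to 13.8), beside 6.18%. The NF-Y share was 9.7% in replicate 1 by itself and 7.47% (37 of 495 peaks) in replicate 2 by itself. With the stronger 50% of each library's peaks it was 6.85% (10 of 146). The share of all distal peaks was not recomputed in these settings. The SMAD palindrome GTCTAGAC was in 3 peaks, at Itgav, Lamb1 and Lamb3, 1.08% (0.223 to 3.12), beside 0.131%. In replicate 2 by itself the SMAD share was 0.404% (2 of 495 peaks). ETS (CCGGAAG) was in 0 of 278 peaks, for which the upper bound of the interval is 1.32%, beside 0.859%. Lama2 held 5 of the 27 NF-Y matches, Itgb5 5 of the 33 AP-1 matches, and Itga8 7 of the 33 C/EBP matches. The 8 DR1 matches were spread over Itga6, Itga11, Itgae, Itgb3, Itgb5, Lama4 and Lamb3.

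**Figure D5:**
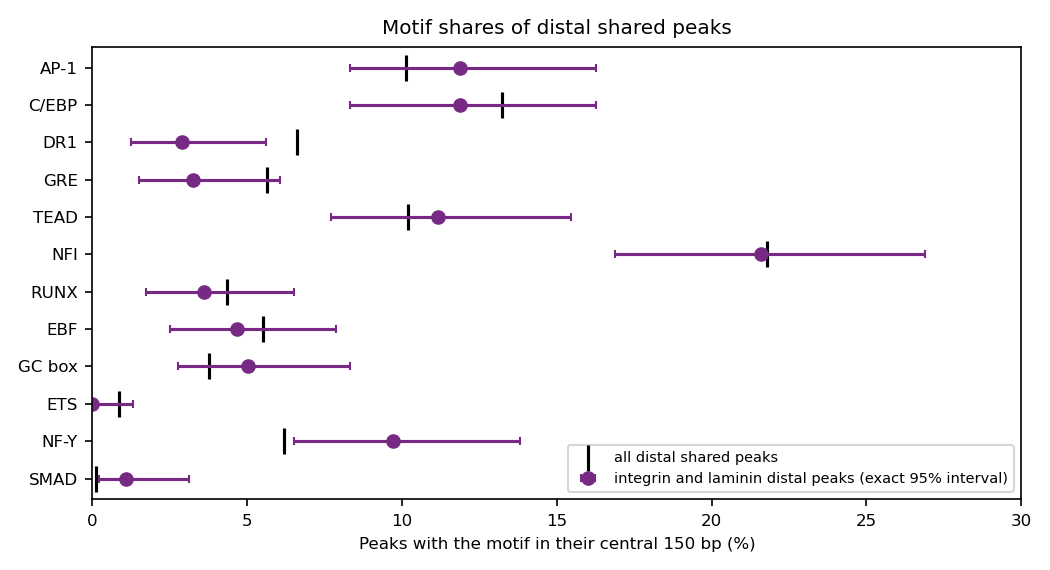
Share of distal shared peaks that hold each of 12 motifs in the central 150 bp, in percent: circles for the 278 peaks of integrin and laminin genes with exact 95% intervals, vertical ticks for all 95618 distal shared peaks. The tick lies outside the interval for DR1, NF-Y and SMAD.

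The genes that work with integrins and laminins were taken from lists and described by the same measures. Integrin adaptors couple integrins to actin and to kinases. The list of 26 such genes also held Itgb1bp1 and Itgb3bp, the binding proteins left out of the members, both accessible in both libraries. Of the 26 genes, 21 had an accessible promoter in both libraries and 25 in replicate 2 (55.3% and 59.5% of all genes). Their median was 8 distal shared peaks. The most were at Tns1, a tensin that binds integrin tails (45), Tln2, a talin (29), and Parva, a partner of integrin-linked kinase (25). The 5 without an accessible promoter in both libraries were Tln2, Fermt1, Fermt3, Parvb and Parvg, of which Fermt1 alone also lacked one in replicate 2. Fermt3 is the kindlin of blood cells and Fermt1 that of epithelia.

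Among 20 genes of other basement membrane components and laminin receptors, 10 had an accessible promoter in both libraries and 12 in replicate 2, with a median of 5 distal shared peaks. Col4a1, a chain of the major basement membrane collagen, had 44, and Col15a1 and Fbln2 had 22 each. Without an accessible promoter in both libraries were the nidogens Nid1 and Nid2, which tie laminin to collagen, the laminin receptor Bcam, Col4a3, Col4a4, Col4a6, Col15a1, Ntn4, Fbln1 and Smoc2. Among 24 genes of integrin ligands other than laminins, 18 were accessible in both libraries and 20 in replicate 2, with a median of 8.5. Ltbp1, which anchors latent TGF-beta, had 31, Col1a2 23 and Col6a1 19. Vtn, Npnt, Ccn3, Icam1, Fga and Fgg had no accessible promoter in both libraries. In both libraries the share of accessible promoters was above that of all genes for adaptors (80.8%) and ligands (75%), and below it for the integrin genes, the laminin genes and the basement membrane list (50%). In replicate 2 the adaptors (96.2%), the ligands (83.3%) and the laminin genes (72.7%) were above the 59.5% of all genes. The integrin genes (60.7%) and the basement membrane list (60%) were close to it. The lists were chosen with earlier results of these data known, and no test was made.

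The distances that define the counts cut through some groups of peaks. The innermost and outermost cases at 1000 bp were a peak of Itga6 centred at 993 bp (values 45 and 83), counted as a promoter peak, and one of Lamc1 at 1065 bp (65 and 115), counted as distal. At the limit of 100 kb the furthest peak counted was one of Itga6 at 92139 bp (58 and 105). The nearest left out was one of Lama2 at 105936 bp (19 and 47), among 41 peaks whose nearest start site was a member's but lay beyond the limit. Of the families' distal peaks in replicate 1, 94.0% had a partner in replicate 2, and of those in replicate 2, 56.6% had one in replicate 1. For all genes these shares were 92.2% and 54.0%. The ranks of the shared distal peaks had the same medians as those of all genes, percentiles 51.4 and 68.9.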

How the data were processed

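DNase-seq peak and hotspot lists of 2 libraries of 1 group were used as deposited. The peak lists give a signal per peak, in whole values from 1 to 150, and the deposited hotspot lists the −log10 of a q value, up to a ceiling of 100. The authors called regions in each library separately, and the assembly was mm10, per the labels. The aligner, peak caller and thresholds, like the sequencing depth, were not given in the sources used here. A single peak therefore has no stated precision, and the signal served only to rank peaks within a library (percentiles of all its peaks). Duplicate lines (20 and 33) were counted once, and 337 and 603 lines off the 21 assembled chromosomes were left out.

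Genes and start sites came from GENCODE release M21, and sequences from the GRCm38 reference. Positions are counted from 1. The planned wording took the start sites of all transcripts of protein-coding genes. Those of protein-coding transcripts were used instead, a choice made after the peak lists were read, and the other definition is given as an alternative. Shared peaks (117590) needed an overlap of at least 1 bp. Of these, 95618 were distal and 78174 lay within 100 kb of a start site. Members are named with their promoter state and distal count. Some results that this rule gives are not reported here, although they are part of the totals. The 10 richest in distal peaks, the 5 with the strongest promoter peak in replicate 1 and those with a promoter peak in 1 library are given in full. Of each pathway list the 3 genes with the most distal peaks and those without an accessible promoter are named. Members, lists and motifs were chosen with earlier results of these data known. With 1 group no test between groups was possible, and counts stand beside those of all genes. The procedure was tested on simulated data, where the promoter state and distal count of 400 of 400 genes were recovered. Python 3.11.15, numpy 2.4.6, scipy 1.17.1, pysam 0.24.0 and matplotlib 3.10.9 were used. Alternatives were other windows, distances, overlaps, start sites and peak strengths, hotspots in place of peaks, and each library alone.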

Additional observations from a re-analysis of the deposited data

How the results depend on the processing

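The number of members with an accessible promoter in both libraries was 16 and lay between 13 and 25 over 10 alternatives. It was 16 of 39 in replicate 1 alone and 25 in replicate 2 alone, beside 55.6% and 59.5% of all genes. A window of 500 bp gave 14, with Itga7 and Lamb3 lost, beside 52.7% of all genes. A window of 2500 bp gave 22, with Itga2, Itga11, Itgad, Lama2, Lama5 and Lamc3 added, beside 61% of all genes. The start sites of all transcripts, the definition of the planned wording, gave 19, beside 57.2% of all genes. The 278 distal shared peaks became 146 with the stronger 50% of the peaks of each library and 124 within 20 kb, and 299 to 495 in single libraries. The median of 6 per gene, beside 2 over all genes, became 3 under either of the first settings, beside 1 over all genes. In single libraries it was 6 to 10, beside 2 and 3 over all genes. Heterodimers with both promoters accessible numbered 8 to 14 and trimers 2 to 7 in single libraries, and trimers numbered 9 with the window of 2500 bp. For the 10 genes with the most distal peaks, 77 of 110 recomputed counts stayed within 1.5 times the main one. The 48 recomputed motif shares stayed within the interval of the main share. In replicate 2 alone, however, DR1 moved from 2.88% to 4.85%, SMAD from 1.08% to 0.404% and NF-Y from 9.71% to 7.47%. NF-Y was 6.85% with the stronger 50% of the peaks of each library. No paired analysis was possible because there is 1 group of samples and no result comes from a test. The unknown depth of the libraries limits every count of absent peaks.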
